A study of Mus musculus with 12 samples.

Results

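The cells described here were 3937 epithelial cells of mouse small intestinal organoids, of 11987 cells kept in the whole single-cell experiment. They came from 2 of its 6 groups. 1829 cells came from organoids stimulated with recombinant IFNγ and IL-10 (rIFNγ/rIL-10) and 2108 cells came from organoids co-cultured with regulatory T (Treg) cells. Cells of the groups had been tagged with hashtag antibodies (barcoded antibodies against a surface protein), pooled and captured in the same droplet libraries. A cell was a member when HTODemux, which sets a threshold for each hashtag, called it positive for 1 hashtag alone and this hashtag was that of either group. A member also had 10000 to 90000 UMIs (unique molecular identifiers, each standing for 1 captured transcript), 3000 to 10000 genes and at most 8.5% mitochondrial UMIs.

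Both groups were small intestinal organoids, 3-dimensional cultures grown from the crypts of wild-type BALB/c mice, and both were cultured for 4 days. The rIFNγ/rIL-10 organoids received 0.25 ng/ml rIFNγ and 10 ng/ml rIL-10 and no T cells. The Treg organoids shared the well with 100000 allogeneic CD25high FoxP3-GFP+ cells, sorted from C57BL/6-derived reporter mice and stimulated with IL-2 (30 U/ml) and CD3/CD28 beads (2 µl per well). The wells were set up so that T cells and organoids did not touch. The sources used here do not say whether IL-2 and beads were also present in the cytokine wells. Control organoids of the same libraries, without T cells or cytokines, gave the background (1831 cells). Before capture, live EpCAM+ cells were sorted, which keeps epithelium. The comparison asks how far a defined dose of both cytokines and the T cells themselves put organoid cells into the same transcriptional state.

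IFNγ binds a receptor of IFNGR1 and IFNGR2 chains, whose JAK kinases activate factors that bind GAS elements and induce IRF1, which with further factors induces antigen presentation genes and the GTPases that attack vacuoles of intracellular pathogens. IL-10 acts through IL10RA and IL10RB and mainly through STAT3. Crypts hold Lgr5+ stem cells (ISCs), their dividing transit-amplifying (TA) progeny, absorptive enterocytes, mucus-secreting goblet cells, antimicrobial Paneth cells and hormone-secreting enteroendocrine cells.

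The 5 libraries formed 3 replicates, each an experiment of its own, and every library held all 6 groups. The rIFNγ/rIL-10 group had 571, 922 and 336 cells in replicates 1, 2 and 3. The Treg group had 700, 987 and 421 cells. Summed over cells, the 2 groups held 15150746 to 43932845 UMIs per replicate, and the median cell held 42410 to 46324 UMIs. The limits on UMIs, genes and mitochondrial share kept 35.9% to 64.9% of the hashtag singlets of the 2 groups. 1 library of replicate 2, library B3, stood apart: 1066 of its 5387 barcodes were hashtag doublets, more than in the other 4, and a score of transcriptional doublets did not rank them above singlets there (area under the curve 0.205, against 0.567 to 0.758 in the others). Without that library the numbers of genes called over all cells and in each class moved by less than 1.5 times. Among the small list counts below, targets of the EGF receptor then had 6 lower, STAT3 targets 3 higher, IL-4 and IL-13 targets 2 higher, and NF-κB targets 1 higher and 2 lower. The test of the difference between classes was not run without it. No barcode of a member was shared between libraries. EpCAM-sorted cells held almost no T cell transcripts: Ptprc, the pan-leukocyte gene CD45, had 0 UMIs in each of the 3 groups.

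Genes of the interferon response took a larger share of a cell's UMIs with rIFNγ/rIL-10 than with Treg cells in every replicate. The share was summed over 86 genes: guanylate-binding proteins, immunity-related GTPases, MHC class I and II presentation, the immunoproteasome and antiviral genes. The median rIFNγ/rIL-10 cell spent 0.848%, 0.588% and 0.846% of its UMIs on them in replicates 1, 2 and 3. The median Treg co-culture cell spent 0.165%, 0.257% and 0.197%, and the median control cell 0.118%, 0.120% and 0.129%. All 3 rIFNγ/rIL-10 values lay above all 3 Treg values, and all 3 Treg values lay above all 3 control values. The rIFNγ/rIL-10 mean exceeded the Treg mean by 0.554 ± 0.194 percentage points (SD of the within-replicate differences, n = 3), with an exact two-sided permutation p of 0.1, the smallest that 3 against 3 allows. Neither this permutation nor that of the class shares below kept the pairing of values by replicate. Thinning every cell to 10000 UMIs gave 0.553.

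**Figure D1:**
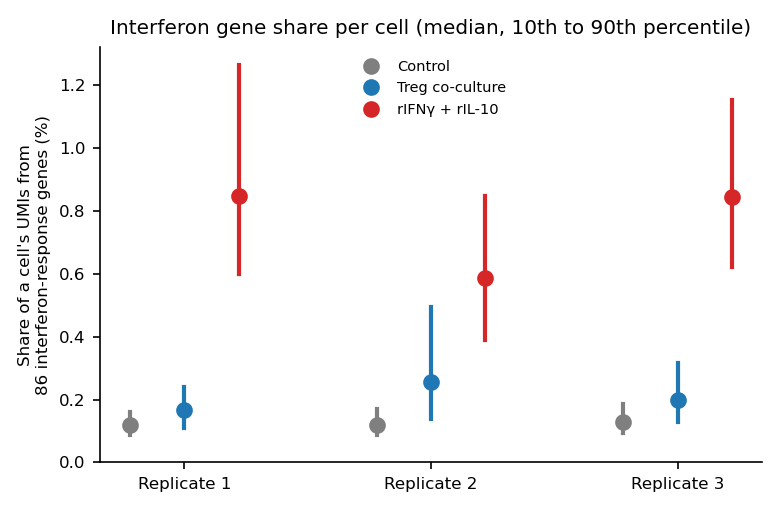
Share of a cell's UMIs (%) from 86 interferon-response genes, by replicate. Points are medians over cells and lines run from the 10th to the 90th percentile of cells. The rIFNγ/rIL-10 medians of 0.588% to 0.848% lie above the Treg medians of 0.165% to 0.257%, and the lines of both groups overlap in replicate 2 alone.

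The response was spread over nearly all rIFNγ/rIL-10 cells. In replicates 1, 2 and 3, 99.6%, 99.3% and 100% of them lay above the 90th percentile of control cells of the same replicate. Of Treg co-culture cells, 54.3%, 79.7% and 55.3% did. Endocrine-like cells, a class described below, responded less in replicate 2. Their median share was 0.331% with rIFNγ/rIL-10 (32 cells). The 90th percentile of 11 endocrine-like control cells was 0.386%. The upper range of Treg cells met the lower range of rIFNγ/rIL-10 cells in replicate 2. There 211 of 987 Treg cells (21.4%, exact 95% interval 18.9% to 24.1%) reached the 10th percentile of rIFNγ/rIL-10 cells. In replicate 1 this was 0 of 700 Treg cells, with an exact upper bound of 0.526%, and in replicate 3 it was 0 of 421, with an upper bound of 0.872%. Intervals of this kind cover counting error only. Replicate 2 thus had the weakest cytokine and the strongest Treg response, and both of its libraries showed it: the medians were 0.546% and 0.611% for rIFNγ/rIL-10 and 0.249% and 0.264% for Treg cells.

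Across all genes, the UMIs of each group in each replicate were added up and tested with edgeR's quasi-likelihood test, with all 6 groups in the model and the replicate as a block. Of 14994 genes tested, 1670 (11.1%) were higher and 1480 (9.87%) lower with rIFNγ/rIL-10 than with Treg cells, 3150 in all, at a Benjamini-Hochberg adjusted p under 0.05. The median log2 fold change over all genes was -0.00. List counts below are to be read against these shares, 11.1% higher and 9.87% lower. Against control, which both groups share, 2728 genes (18.2%) were higher and 2629 (17.5%) lower with rIFNγ/rIL-10. With Treg cells, 23 genes (0.153%) were higher and 0 lower than in control. The count between the 2 groups rested on replicates 1 and 3. It was 643 without replicate 1, 3412 without replicate 2 and 5 without replicate 3, while a model of the 2 groups alone gave 2 and a model without the replicate block 446. The model of 2 groups called 0 guanylate-binding proteins, 0 immunity-related GTPases and 0 MHC class II genes, at median log2 fold changes of 4.75, 4.27 and 4.36. The adjusted p-values of genes below come from the spread of all 6 groups. Without replicate 3 the log2 fold changes kept their size (all 9 MHC class II genes positive, median 4.24, against 4.43 with it), and in TA-like cells, a class described below, the test without replicate 3 still called 9 of 9 MHC class II genes, 7 immunity-related GTPases and 14 of 18 MHC class I genes. A log2 fold change below is that of rIFNγ/rIL-10 minus Treg cells, ± its standard error, and levels are CPM, the UMIs of a gene scaled to the same total in every sample. The 3′ UMI counting used here counts a transcript once whatever its length.

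The 12 genes highest with rIFNγ/rIL-10 were Ido1, Ly6a, Iigp1, Ubd, Gbp2b, Defa35, Gm15293, Car4, Gm50237, Igtp, Tgtp1 and H2-DMb1. Most belong to the interferon response, but Defa35 is a Paneth cell defensin and Car4 a carbonic anhydrase of the brush border. Ly6a encodes the surface protein Sca-1, which is also found on regenerating epithelium. The 12 lowest were Reg1, Cfhr2, Edn1, Cyp2c70, Ttr, Clca4b, Fosb, Rdh7, Fos, Gas6, Cttnbp2 and Iffo2. They include the regenerating islet-derived lectin Reg1, endothelin (Edn1), transthyretin (Ttr), a retinol dehydrogenase (Rdh7) and the early stress genes Fos and Fosb. In these 24 genes the 3 rIFNγ/rIL-10 values did not overlap the 3 Treg values, but they had been chosen for the size of the change and for the same direction in every replicate.

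**Figure D2:**
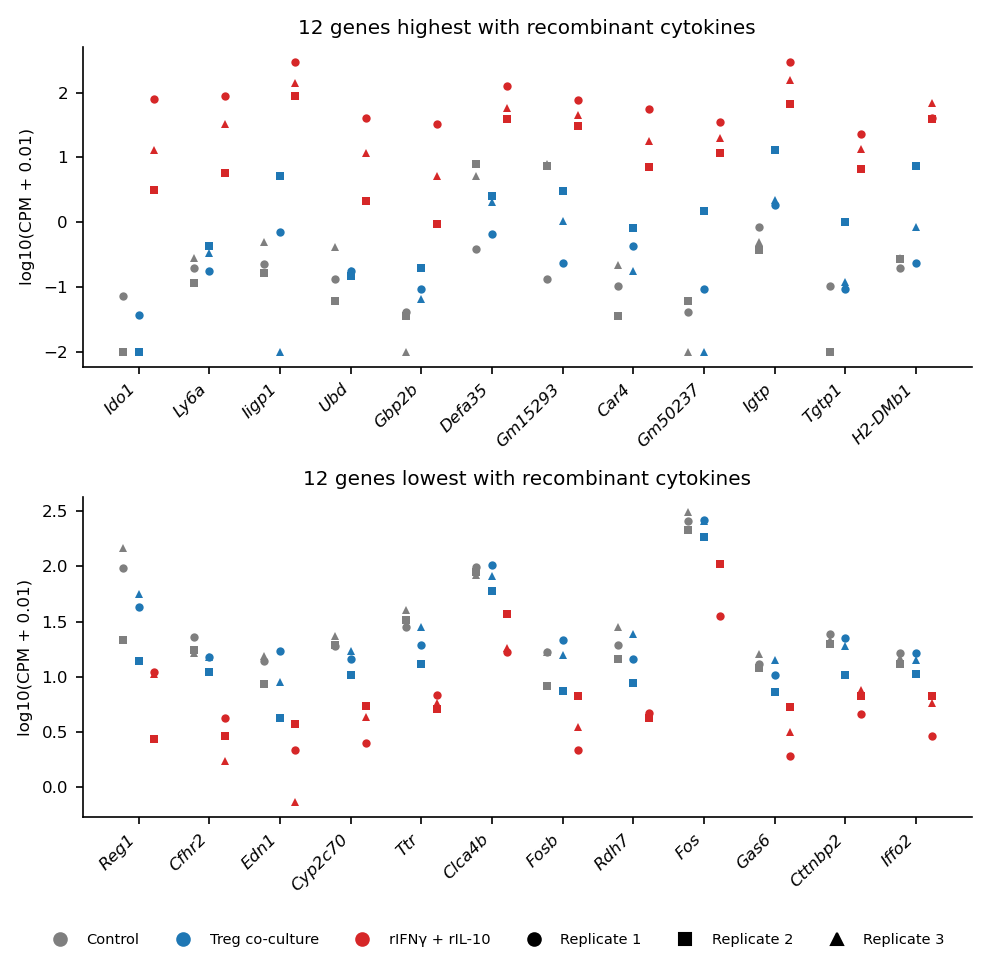
Level of the 12 genes highest and the 12 lowest with rIFNγ/rIL-10 relative to Treg co-culture, as log10 of CPM plus 0.01 in each replicate (marker) and group (colour). In both panels the red points (rIFNγ/rIL-10) of a gene do not overlap its blue points (Treg).

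Of the 15 genes of the IFNγ receptor, its kinases, factors and brakes, 11 were higher and 2 lower with rIFNγ/rIL-10. The lower ones were the receptor chains. Ifngr1 stood at 75.0, 84.6 and 81.3 CPM with rIFNγ/rIL-10 in replicates 1, 2 and 3 and at 101.3, 92.3 and 112 CPM with Treg cells. Every rIFNγ/rIL-10 value lay below every Treg value (log2 fold change -0.33 ± 0.06, adjusted p = 0.0026), and Ifngr2 differed by -0.40 ± 0.05 (adjusted p = 0.00039). Control values of Ifngr1 were 100.6, 90.4 and 106 CPM.

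Irf1, a factor that IFNγ induces, stood at 194, 116 and 164 CPM with rIFNγ/rIL-10, 38.2, 65.6 and 42.4 CPM with Treg cells and 9.11, 6.89 and 8.06 CPM in control, with the 3 groups apart. Irf1 differed between the 2 groups by 1.69 ± 0.24 (adjusted p = 0.00064) and between Treg cells and control by 2.62 (adjusted p = 0.0020). Irf8, a partner of IRF1, differed by 2.00 ± 0.26 (adjusted p = 0.00039). Stat2 (1.13 ± 0.18) and Irf9 (0.54 ± 0.14), which carry the type I interferon signal, differed by less.

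Of 5 brakes of the pathway, 3 were higher with rIFNγ/rIL-10. Socs1, which inhibits the JAK kinases, stood at 26.9, 7.31 and 13.7 CPM with rIFNγ/rIL-10 and at 0.779, 1.89 and 1.66 CPM with Treg cells, close to the control values of 0.713, 1.18 and 0.689 CPM. It had the largest log2 fold change of this list (3.46 ± 0.47, adjusted p = 0.00047). Usp18, a brake on type I interferon signalling, differed by 2.46 ± 0.56 (adjusted p = 0.0090) and Socs3, the brake that STAT3 induces, by 0.60 ± 0.16 (adjusted p = 0.021). Ptpn2, a phosphatase of JAK1, and Cish, an inhibitor of STAT5 signalling, gave -0.09 ± 0.04 and -0.36 ± 0.38 and did not pass the test (adjusted p = 0.14 and 0.53). Jak1, Jak2 and Stat3 passed it with overlapping values (0.19, 0.33 and 0.81).

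Of the 4 measured receptor genes of the IL-10 family, 0 passed edgeR's test, 0 had an unadjusted p under 0.05, and DESeq2 called 0. Il10rb, the shared chain, was measured at 26.5, 26.9 and 28.0 CPM with rIFNγ/rIL-10 and at 22.8, 26.7 and 30.6 CPM with Treg cells (log2 fold change 0.04 ± 0.07). The IL-10-specific chain Il10ra was too low to be tested. Of 11 epithelial defence genes that STAT3 induces, 2 were higher, where 11.1% of all genes were. These were Pla2g5, a secreted phospholipase (1.74 ± 0.24, adjusted p = 0.00051), and Il4ra, an interleukin receptor chain (0.65 ± 0.21, adjusted p = 0.042). So small a count is no result about the list.

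Motifs known from interferon signalling were searched for in the promoters of these genes. Whether they carry the signal here was not tested. For 27025 mouse genes, RefSeq sequence of build GRCm38.p6 was searched in the 250 bases before the start for the IFNγ-responsive element GAS (TTCNNNGAA, which reads alike on both strands) and for a short form of the ISRE, the element of IRF1 and ISGF3 (GAAANNGAAA, or TTTCNNTTTC on the other strand). GAS occurred before 8.13% and the ISRE-like motif before 3.46% of all genes. Of the 7 immunity-related GTPases with a sequence, 5 held GAS and 6 the ISRE-like motif. Of 4 guanylate-binding proteins with a sequence, all 4 held the ISRE-like motif and 1 held GAS. Among MHC class II genes, 1 of 6 held each motif, and among MHC class I genes 1 of 14 held GAS and 3 the ISRE-like motif. A match is a description of letters and not a binding site. The 150 bases before the start are printed 5′ to 3′ on the strand of the gene, with motif matches in capitals. Only genes named here from the IFNγ receptor and GTPase lists with a match in these bases are printed. Every printed sequence was thus bound to hold a match. Genes of 1 chromosome were left out. Irf1 and Socs1 are the regulators described above.
Irf1 (chr11:53769864-53770013, plus strand, GAS): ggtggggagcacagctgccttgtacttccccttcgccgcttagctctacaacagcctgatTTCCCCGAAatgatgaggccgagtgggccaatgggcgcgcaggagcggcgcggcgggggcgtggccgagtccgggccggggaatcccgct
Socs1 (chr16:10785537-10785686, minus strand, overlapping ISRE-like matches): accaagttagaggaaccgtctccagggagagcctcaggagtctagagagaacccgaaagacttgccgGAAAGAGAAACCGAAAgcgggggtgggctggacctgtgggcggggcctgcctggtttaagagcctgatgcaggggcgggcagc
Igtp (chr11:58199406-58199555, plus strand, GAS and ISRE-like): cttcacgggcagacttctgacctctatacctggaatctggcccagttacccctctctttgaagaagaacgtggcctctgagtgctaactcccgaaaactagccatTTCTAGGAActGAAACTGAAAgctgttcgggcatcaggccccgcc
Tgtp1 (chr11:48992247-48992396, minus strand, GAS and ISRE-like): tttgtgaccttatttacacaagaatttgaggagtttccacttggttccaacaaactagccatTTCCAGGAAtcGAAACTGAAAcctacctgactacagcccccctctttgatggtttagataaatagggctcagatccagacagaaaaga
Gbp2 (chr3:142620513-142620662, plus strand, ISRE-like): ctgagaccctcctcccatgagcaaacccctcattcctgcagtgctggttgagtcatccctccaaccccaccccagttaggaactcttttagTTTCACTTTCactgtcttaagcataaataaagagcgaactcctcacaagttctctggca
Gbp2b (chr3:142594697-142594846, plus strand, ISRE-like): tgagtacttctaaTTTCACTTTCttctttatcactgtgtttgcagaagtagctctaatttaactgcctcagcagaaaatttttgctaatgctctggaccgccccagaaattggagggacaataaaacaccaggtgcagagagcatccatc
Gbp3 (chr3:142559894-142560043, plus strand, overlapping ISRE-like matches): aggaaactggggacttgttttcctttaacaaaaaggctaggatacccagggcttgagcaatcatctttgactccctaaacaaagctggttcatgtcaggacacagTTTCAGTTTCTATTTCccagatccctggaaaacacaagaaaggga

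In Igtp and Tgtp1, which lie on chromosome 11, GAS and the ISRE-like motif follow each other closely, beginning 45 and 34 bases before the start in Igtp and 88 and 77 bases before it in Tgtp1. The 12 lowest genes, of which 11 had a sequence, held GAS in 0 and the ISRE-like motif in 1. The 12 highest, of which 7 had a sequence, held GAS in 2 and the ISRE-like motif in 3. Of 12 genes with a sequence in the IFNγ receptor list, 3 held GAS and 2 the ISRE-like motif. Of 7 immunoproteasome genes, 1 held GAS and 0 the ISRE-like motif. Counts this small were not tested against the share of all genes.

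All tested genes of both families of interferon-induced GTPases were higher with rIFNγ/rIL-10. These were 9 of 9 immunity-related GTPases (median log2 fold change 4.55) and 7 of 7 guanylate-binding proteins (median 5.11). A gene could pass the filter on low counts through the rIFNγ/rIL-10 group alone, so these shares are not independent of the filter. Without it, 9 of 9 and 10 of 10 members of these families were higher. These families hold near-identical copies, and reads that fit several copies are not counted, so the levels of their members may be too low and are uncertain. Iigp1, a GTPase that coats pathogen vacuoles, stood at 294, 89.2 and 142 CPM with rIFNγ/rIL-10 and at 0.695, 5.26 and 0 CPM with Treg cells. Only replicate 2 of the Treg group exceeded the control range of 0.157 to 0.482 CPM by more than 1 CPM (log2 fold change 6.52 ± 0.77, adjusted p = 0.00027). Igtp (Irgm3), a regulator of the family, stood at 300.5, 67.3 and 155 CPM against 1.84, 13.0 and 2.16 CPM, and differed by 5.04 ± 0.74 (adjusted p = 0.00076). Tgtp1 stood at 22.7, 6.66 and 13.7 CPM against 0.0834, 1.01 and 0.111 CPM.

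Guanylate-binding proteins attack pathogen membranes and were all but silent with Treg cells. Gbp2b stood at 33.0, 0.923 and 5.11 CPM with rIFNγ/rIL-10 and at 0.0834, 0.184 and 0.0554 CPM with Treg cells, and Gbp2 at 15.7, 0.399 and 4.17 CPM against 0.0278, 0.231 and 0.0554 CPM. The rIFNγ/rIL-10 values ran over more than an order of magnitude between replicates 1 and 2, yet stayed above every Treg value for both genes. In replicate 2 Gbp2 was near the floor in both groups. It was detected in 14 of 922 rIFNγ/rIL-10 cells (exact 95% interval 0.833% to 2.53%) and 6 of 987 Treg cells (0.223% to 1.32%), with overlapping intervals. Gbp2b differed by 6.13 ± 0.88 (adjusted p = 0.00064) and Gbp2 by 5.11 ± 1.18 (adjusted p = 0.011). For Gbp3, 108 UMIs with rIFNγ/rIL-10 stood against 2 with Treg cells, a ratio of 64.4 per UMI sequenced (95% counting interval 17.4 to 539). For Gm4951, a further GTPase, 300 UMIs stood against 3 (ratio 119, interval 40.4 to 582).

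Antigen presentation moved as a block. MHC class II genes, which present extracellular antigen to CD4+ T cells, were higher with rIFNγ/rIL-10 in 9 of 9 tested (median log2 fold change 4.43). MHC class I genes were higher in 17 of 18 (median 1.29) and immunoproteasome genes in 7 of 7 (median 1.08). When the filter on low counts was dropped, 10 of 12 MHC class II genes were higher. H2-Aa stood at 267, 223 and 371 CPM with rIFNγ/rIL-10, at 2.61, 46.0 and 7.48 CPM with Treg cells and at 0.527, 1.05 and 0.413 CPM in control. All 3 Treg values lay above all control values and all rIFNγ/rIL-10 values lay above both (4.64 ± 0.61, adjusted p = 0.00042). Cd74, the invariant chain, stood at 1093, 1087 and 1694 CPM against 11.99, 285 and 70.7 CPM, and Ciita, the master regulator of the class, at 33.8, 22.4 and 28.6 CPM against 1.25, 7.75 and 2.38 CPM. Cd74 differed by 4.33 ± 0.63 and Ciita by 3.17 ± 0.42.

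By cells, H2-Aa was detected in 97.7%, 96.2% and 98.8% of rIFNγ/rIL-10 cells. With Treg cells it was detected in 8.14%, 48.2% and 17.1%, and in control in 2.45%, 4.57% and 1.74%. At 10000 UMIs per cell the values were 88.8%, 82.2% and 92.6% with rIFNγ/rIL-10 and 2.29%, 26.3% and 6.18% with Treg cells. H2-Aa was therefore a gene of nearly every cell in one group and of a minority in the other, with replicate 2 of the Treg group between. Endocrine-like rIFNγ/rIL-10 cells, a class described below, were an exception. They held H2-Aa in 80.6%, 37.5% and 63.6% of 31, 32 and 11 cells. Other antigen presentation genes were found in more cells of the Treg group than H2-Aa. Cd74 was detected in 21.4%, 74.3% and 45.4% of them (control 6.54%, 19.4% and 13.4%). The immunoproteasome gene Psmb8 was detected in 69.0%, 83.4% and 83.8% (control 31.9%, 23.9% and 43.9%).

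In the class I pathway, Nlrc5, the transactivator of class I genes, stood at 21.2, 9.53 and 11.4 CPM with rIFNγ/rIL-10 and at 1.08, 3.44 and 1.11 CPM with Treg cells (2.94 ± 0.43, adjusted p = 0.00070). Tap1, a subunit of the peptide transporter, stood at 80.2, 43.3 and 70.1 CPM against 5.84, 16.3 and 9.53 CPM (2.72 ± 0.35, adjusted p = 0.00039). B2m, the light chain of class I, stood at 842, 490.0 and 766 CPM against 254, 322 and 310.1 CPM and differed by 1.24 ± 0.15. Psmb8 and Psmb9, catalytic subunits of the immunoproteasome, differed by 2.67 ± 0.39 and 2.22 ± 0.27 and Psmb10 by 1.08 ± 0.16. Ubd, the ubiquitin-like modifier FAT10 that targets proteins to the proteasome, stood at 40.3, 2.10 and 11.5 CPM against 0.167, 0.138 and 0.166 CPM (6.46 ± 0.64, adjusted p = 0.00014). The groups were apart in all of these genes. Of the 31 genes of the constitutive proteasome 11 were higher, by at most 0.44 on the log2 scale (Psma4). A model without the replicate block, or of the 2 groups alone, called 0 of the 31.

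**Figure D3:**
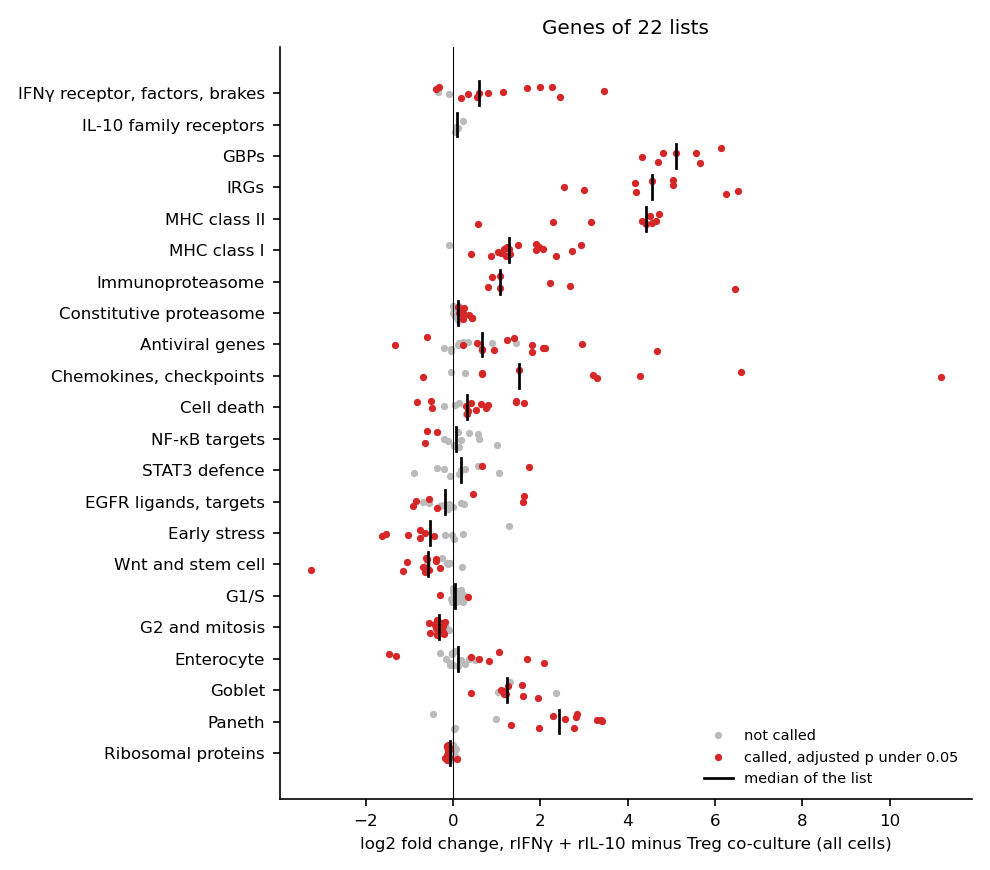
Log2 fold change, rIFNγ/rIL-10 minus Treg co-culture in sums over all cells, of the genes of 22 lists. Each point is a gene, red where the adjusted p is under 0.05, and the black bar is the median of the list. Guanylate-binding proteins, immunity-related GTPases and MHC class II genes have medians of 5.11, 4.55 and 4.43, and most other lists have medians between -1 and 1.

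The distance that Treg co-culture covered from control towards rIFNγ/rIL-10 differed by gene. It was computed in each replicate, for 31 interferon genes whose rIFNγ/rIL-10 value exceeded control by at least 20 CPM, as the Treg difference from control in percent of the rIFNγ/rIL-10 difference from control, so that the same control values enter both. The genes were thus chosen by the difference that is also the denominator, so the percentages describe these genes and no others. The median over the genes was 5.93%, 36.3% and 10.4% in replicates 1, 2 and 3. Erap1, which trims peptides for class I, had the highest mean, with 34.7%, 61.1% and 43.9%, although Psme2 and Psmb10 lay above it in replicate 2. The proteasome activators Psme2 (24.5%, 62.6% and 29.4%) and Psme1 (26.4%, 59.3% and 26.5%), the β-galactoside-binding lectin Lgals9 (22.7%, 59.1% and 24.9%), Psmb10 (18.5%, 62.3% and 23.6%) and Irf1 (16.1%, 53.1% and 22.02%) followed, and their order among each other lay within the spread of replicates. At the other end stood Iigp1 (0.167%, 5.66% and -0.345%), the tryptophanyl-tRNA synthetase Wars (-1.71%, 18.0% and -5.83%), H2-DMb1 (0.0969%, 17.8% and 0.813%) and Igtp (0.342%, 18.6% and 1.08%). By list, the medians were 18.5%, 59.3% and 23.6% for 5 immunoproteasome genes, 7.59%, 39.0% and 14.2% for 8 MHC class I genes, 0.801%, 22.5% and 2.18% for 7 MHC class II genes and 0.342%, 18.6% and 1.08% for 3 immunity-related GTPases.  

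**Figure D4:**
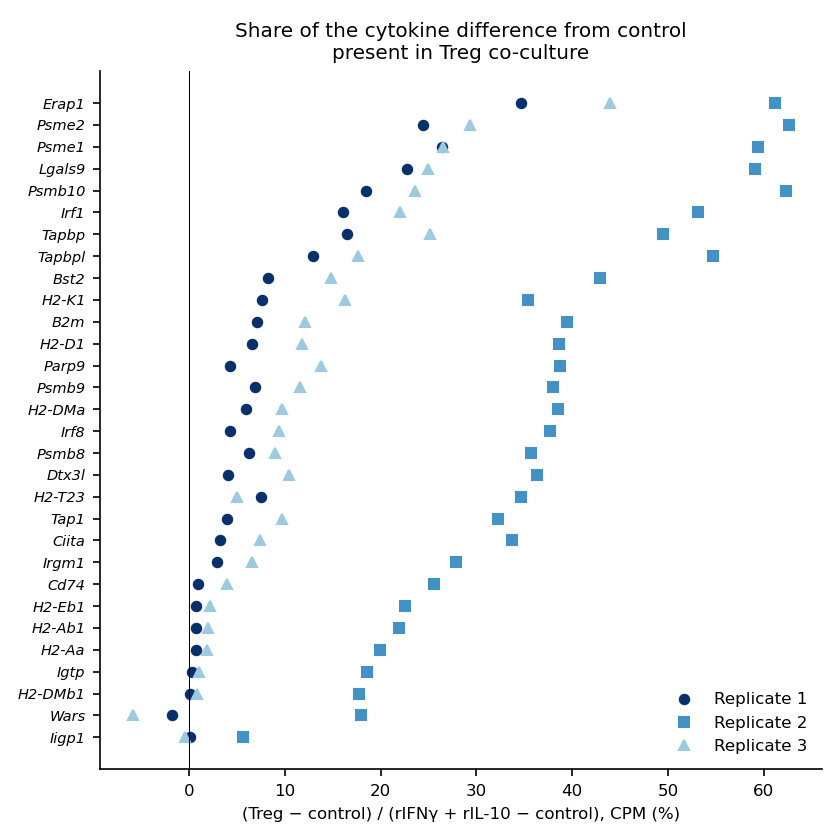
Treg minus control in percent of rIFNγ/rIL-10 minus control, in CPM, for interferon genes in each replicate. Erap1 is at 34.7% to 61.1% and Iigp1 at -0.345% to 5.66%, and replicate 2 lies to the right of the others for every gene shown.

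Antiviral genes, most of which also answer to type I interferon, were higher in 13 and lower in 2 of 25. Without replicate 1, 6 were higher and 0 lower, and without the replicate block 5 and 0. With the 2 groups alone 0 were called. Zbp1, a sensor of Z-form nucleic acid, stood at 19.97, 4.17 and 9.78 CPM with rIFNγ/rIL-10 and at 0.111, 0.830 and 0.166 CPM with Treg cells (4.67 ± 0.68, adjusted p = 0.00067). Parp14, an ADP-ribosyltransferase, differed by 2.11 ± 0.27, Ifit1 by 2.95 ± 0.68 and Oasl2 by 2.06 ± 0.55.

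Chemokines, checkpoint ligands and tryptophan enzymes were higher with rIFNγ/rIL-10 in 8 and lower in 1 of 11. Cxcl9, which recruits CXCR3+ T cells, stood at 10.8, 0.848 and 8.99 CPM with rIFNγ/rIL-10 and at 0.0556, 0.0461 and 0.0554 CPM with Treg cells (6.597 ± 0.75, adjusted p = 0.00027). Cxcl10, a ligand of the same receptor, stood at 13.1, 1.60 and 4.60 CPM against 0.362, 0.277 and 0.166 CPM (4.27 ± 0.64, adjusted p = 0.00087). Cd274, which encodes PD-L1, stood at 14.2, 3.39 and 3.81 CPM against 0.389, 1.31 and 0.443 CPM (3.30 ± 0.56, adjusted p = 0.0018). In all 3 genes replicate 1 was the highest of the rIFNγ/rIL-10 values, and the groups did not overlap.

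Ido1, which degrades tryptophan to kynurenine, was the gene that set the groups apart most. It stood at 79.8, 3.14 and 12.8 CPM with rIFNγ/rIL-10 and at 0.0278, 0 and 0 CPM with Treg cells, or 2495 UMIs against 1, a ratio of 2977 per UMI sequenced (95% counting interval 534 to 117640). Nearly all of these UMIs lay in goblet/Paneth-like cells, which held 2407 of them. There Ido1 was detected in 53 of 58, 19 of 61 and 17 of 33 rIFNγ/rIL-10 cells, that is 91.4%, 31.1% and 51.5%. It was detected in 0 of 16, 0 of 47 and 0 of 14 Treg cells, with exact upper bounds of 20.6%, 7.55% and 23.2% on cells with a UMI, not on cells expressing the gene. Per UMI sequenced Ido1 was at least 388-fold higher in goblet/Paneth-like cells of rIFNγ/rIL-10 organoids (against 3 counts over the group). In TA-like rIFNγ/rIL-10 cells it was detected in 12.6%, 0.407% and 1.19%, and in enterocyte-like cells in 1.77%, 0% and 0%. In ISC-like cells it was detected in 5 of 19 cells of replicate 1 (26.3%) and in 0 of 37 and 0 of 14 cells of replicates 2 and 3. At 10000 UMIs per cell the shares in replicate 1 were 7.01% of TA-like and 21.1% of ISC-like cells. Doublets within a group were not removed, and their part in these shares was not tested. At 10000 UMIs per cell Ido1 remained in 82.8%, 18.0% and 45.5% of goblet/Paneth-like rIFNγ/rIL-10 cells.

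Ly6a showed another distribution over classes. It stood at 88.3, 5.66 and 32.9 CPM with rIFNγ/rIL-10 and at 0.167, 0.415 and 0.332 CPM with Treg cells, where control stood at 0.186, 0.105 and 0.275 CPM (6.66 ± 0.88, adjusted p = 0.00042). Treg minus control did not pass the test (adjusted p = 0.96). With rIFNγ/rIL-10, Ly6a was detected in 76.6%, 13.4% and 45.2% of TA-like, 62.4%, 7.88% and 33.3% of enterocyte-like and 70.7%, 19.7% and 27.3% of goblet/Paneth-like cells. With Treg cells the highest share in a replicate of these 3 classes was 1.87%. Of the 7 genes listed for the fetal-like and revival state, Ly6a among them, Ly6e was higher as well (2.97 ± 0.39, adjusted p = 0.00043). Clu, the marker of revival stem cells, was lower (-1.58 ± 0.43, adjusted p = 0.020) with overlapping groups. Whether Ly6a and Ly6e rose as part of that state or of the interferon response was not tested.

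**Figure D5:**
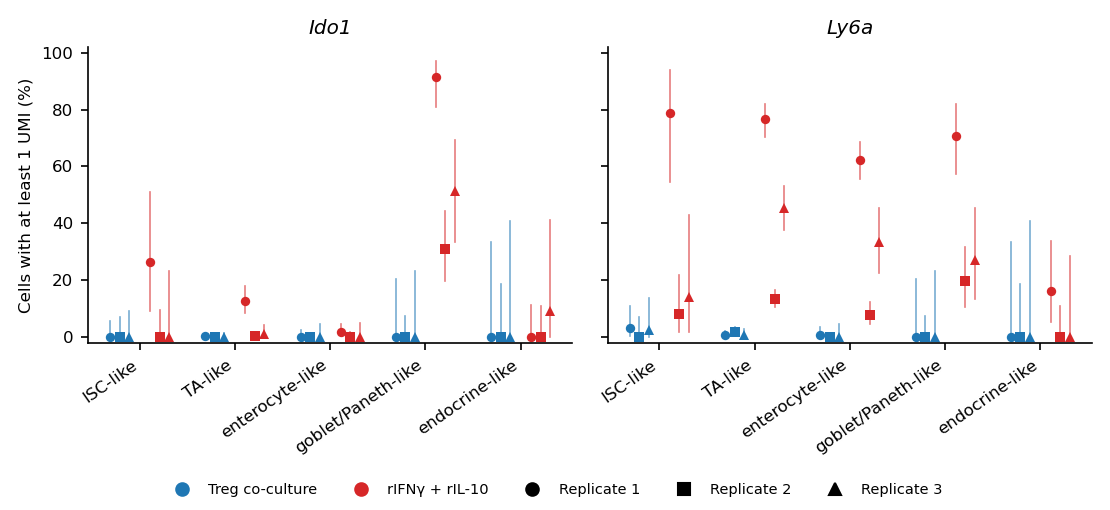
Cells with at least 1 UMI of Ido1 (left) and Ly6a (right), in percent of cells, by class, group and replicate, with exact 95% intervals that cover counting error only. Ido1 is detected in 31.1% to 91.4% of goblet/Paneth-like rIFNγ/rIL-10 cells, and Ly6a in 7.88% to 76.6% of TA-like and enterocyte-like ones.

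Death genes were higher with rIFNγ/rIL-10 in 11 and lower in 3 of 18. Without replicate 1, 4 were higher and 1 lower, and without the replicate block 4 and 0. With the 2 groups alone 0 were called. Fas, a death receptor, stood at 36.8, 10.8 and 18.2 CPM with rIFNγ/rIL-10 and at 6.45, 6.92 and 6.48 CPM with Treg cells (1.63 ± 0.29, adjusted p = 0.0026), and Tnfsf10, which encodes the death ligand TRAIL, at 61.1, 34.4 and 55.4 CPM against 18.7, 17.6 and 17.9 CPM (1.45 ± 0.13, adjusted p = 0.00013). Treg values of both genes lay within narrow ranges and below every rIFNγ/rIL-10 value. Bak1, a mitochondrial pore former (0.64), the necroptosis effector Mlkl (0.80) and Gsdmd, the pyroptosis pore (0.53), were also higher. Casp4 (the mouse caspase-11) and the BH3-only genes Pmaip1 and Bcl2l11 were lower, by -0.84, -0.51 and -0.48.

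Stem cell and Wnt target genes were lower with rIFNγ/rIL-10 than with Treg cells in 12 of 18, and 0 were higher (14 had an unadjusted p under 0.05). Gkn3, an ISC gene, stood at 0.510, 0.574 and 0.503 CPM with rIFNγ/rIL-10, at 10.0, 1.27 and 8.25 CPM with Treg cells and at 16.5, 12.2 and 22.4 CPM in control. Treg values lay between those of the other groups in every replicate, and the groups did not overlap (rIFNγ/rIL-10 minus Treg -3.26 ± 0.64, adjusted p = 0.0041). Treg minus control did not pass the test for Gkn3. Olfm4, a further ISC gene, stood at 233, 475 and 447 CPM against 884, 606 and 939 CPM (-1.06 ± 0.21, adjusted p = 0.0045). Tcf7, Sox9 and Axin2, which act in or answer to Wnt signalling, differed by -0.68, -0.61 and -0.55, while Lgr5 itself gave -0.59 ± 0.21 with overlapping values and did not pass the test (adjusted p = 0.061). The share of ISC-like cells was lower as well (below), and in sums over all cells fewer cells of a class and less RNA per cell cannot be told apart. With the same number of cells per class, 9 of these genes were still lower, and without replicate 1, 4 were. Genes of this list, Gkn3 among them, also served to assign cells to classes, so equal cells per class cannot separate the 2 either. Without the replicate block 2 genes of the list were lower, and with the 2 groups alone 0.

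Of 16 ligands and targets of the EGF receptor, 3 were higher and 4 lower, where 11.1% and 9.87% of all genes were. Without replicate 1, 1 was higher and 0 lower. Without the replicate block, or with the 2 groups alone, 0 were called. Counts this small are no result about the list. Areg (amphiregulin) stood at 198, 145 and 130.2 CPM with rIFNγ/rIL-10, at 46.3, 93.1 and 32.0 CPM with Treg cells and at 33.2, 41.2 and 26.4 CPM in control (1.60 ± 0.30, adjusted p = 0.0029). All rIFNγ/rIL-10 values lay above all Treg values, and replicate 2 of the Treg group was the nearest. Ereg (epiregulin) differed by 1.63 ± 0.47 (adjusted p = 0.026). Hbegf, another ligand, went the other way (-0.84 ± 0.22, adjusted p = 0.019), and Spry4, a feedback inhibitor of ERK, gave -0.92 ± 0.26 (adjusted p = 0.024).

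Early stress genes were lower in 7 of 12, and 0 were higher (9 had an unadjusted p under 0.05). Without the replicate block 4 were lower, and with the 2 groups alone 0. Fos stood at 35.6, 104 and 106 CPM with rIFNγ/rIL-10, at 262, 185 and 260.4 CPM with Treg cells and at 260, 216 and 312 CPM in control (-1.54 ± 0.27, adjusted p = 0.0023). Egr1 (-1.03 ± 0.20) and Jun (-0.76 ± 0.15) went with it, with no overlap between groups. These genes also respond to tissue digestion, and its part in the difference was not tested. Of 14 NF-κB targets, 0 were higher and 3 lower (7 had an unadjusted p under 0.05), and 0 were called without the replicate block or with the 2 groups alone. Among the 3 was Pigr, the receptor that carries IgA across the epithelium, at 438, 473 and 482 CPM with rIFNγ/rIL-10 against 892, 554 and 731 CPM (-0.60 ± 0.11, adjusted p = 0.0029).

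Of 5 Reg lectins, Reg1 alone was called. It stood at 11.1, 2.72 and 10.7 CPM with rIFNγ/rIL-10, at 43.0, 14.0 and 55.7 CPM with Treg cells and at 96.2, 21.8 and 147 CPM in control. In each replicate it thus stepped down from control to Treg cells to rIFNγ/rIL-10 (rIFNγ/rIL-10 minus Treg -2.20 ± 0.39, adjusted p = 0.0022). The step from control to Treg cells did not pass the test. Among IL-4 and IL-13 targets, 1 of 6 was higher (Il13ra1, 1.27 ± 0.21), and among targets of TGF-β and BMP 3 were higher and 1 lower of 9. Over all genes 11.1% were higher and 9.87% lower. Of 13 genes of the ATF4 amino acid response, 5 were higher, among them Chac1, a glutathione-degrading enzyme (1.33), and the cystine transporter Slc7a11 (0.95), both with overlapping groups. A model without the replicate block, or of the 2 groups alone, called 0 of the 13. Cholesterol synthesis genes were called in 1 of 15 (Idi1, -0.15).

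Mitosis genes were lower with rIFNγ/rIL-10 in 19 of 25 and higher in 0 (24 had an unadjusted p under 0.05), with a median log2 fold change of -0.32. Cenpf, a kinetochore protein, stood at 75.0, 113 and 98.5 CPM against 173, 123.05 and 133 CPM (-0.56 ± 0.15, adjusted p = 0.019). Replicate 2 showed the smallest gap. G1/S genes were called higher in 1 and lower in 1 of 23 (median 0.05). These counts differed between settings, and the cause was not tested. With the same number of cells per class, 5 mitosis genes were lower and 17 G1/S genes higher, and without replicate 1, 1 mitosis gene was lower. No replicate block, or the 2 groups alone, left 0 genes of either list called. Most of the mitosis and G1/S genes also served to assign cells to classes. They were therefore not compared within classes, and the counts with equal cells per class are not independent of them. Ccnd1, the G1 cyclin D1, stood at 228, 205 and 233 CPM with rIFNγ/rIL-10 and at 121, 150 and 115 CPM with Treg cells (0.80 ± 0.09, adjusted p = 0.00027), and Ccnd2 was lower (-0.41 ± 0.08, adjusted p = 0.0043) with overlapping values. Of 22 genes of Myc and its nucleolar targets, 1 was higher and 4 lower (median -0.11). This direction turned with equal cells per class, where 2 were higher and 1 lower (median 0.07). Of the 20 of these genes that had not served to assign classes, 6 were higher and 1 lower in TA-like cells (median 0.12), and 0 were higher and 9 lower in enterocyte-like cells (median -0.38). In the test of the difference between these classes, described below, 2 of the 22 were called, and 0 without replicate 1, without replicate 3 or without the block. Of 83 cytosolic ribosomal proteins 1 was higher and 19 lower, with a median of -0.06. With equal cells per class 5 were higher and 5 lower (median -0.008), and without the replicate block 0 were called.

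Paneth cell genes were higher in 10 of 14 (median log2 fold change 2.42), goblet cell genes in 9 of 12 (median 1.23) and enteroendocrine genes in 3 of 15, in sums over all cells. The share over all genes was 11.1%. Defa30, a Paneth cell defensin, stood at 1490, 565 and 879 CPM with rIFNγ/rIL-10, at 36.5, 247 and 76.8 CPM with Treg cells and at 103, 332 and 419 CPM in control (3.38 ± 0.96, adjusted p = 0.025). Muc2, the intestinal mucin, stood at 84.5, 36.8 and 59.1 CPM against 13.8, 38.7 and 8.81 CPM (1.61 ± 0.55, adjusted p = 0.050), with replicate 2 of both groups alike. Atoh1, the factor that sets the secretory lineage, differed by 1.26 ± 0.24 (adjusted p = 0.0038) without overlap. With the same number of cells per class these counts fell to 3 Paneth, 0 goblet and 0 enteroendocrine genes, and without replicate 1 to 1 each. Without the replicate block they were 3, 1 and 1, and with the 2 groups alone 0 in each list. Defensin genes are near-identical, and their levels are uncertain in the same way. Krt20, a keratin of differentiated enterocytes, stood at 115, 25.3 and 51.9 CPM with rIFNγ/rIL-10 and at 13.7, 15.0 and 14.5 CPM with Treg cells (2.08 ± 0.40, adjusted p = 0.0035). It was 1 of 6 enterocyte genes of 21 called higher, and 2 were lower (median 0.11). With equal cells per class, 2 were higher and 2 lower and the median turned to -0.19, and without replicate 1, 2 were higher and 3 lower.

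Cells were assigned to classes by their correlation with named clusters of control cells over genes outside the interferon lists. ISC-like cells made up 3.84% ± 0.447 of rIFNγ/rIL-10 and 7.73% ± 2.22 of Treg cells (SD, n = 3), TA-like cells 46.9% ± 8.37 and 56.9% ± 3.21, and enterocyte-like cells 27.7% ± 10.3 and 21.03% ± 1.91. Goblet/Paneth-like cells made up 8.87% ± 1.95 and 3.46% ± 1.24, endocrine-like cells 4.06% ± 1.19 and 1.59% ± 0.276, and cells of unnamed clusters 8.62% ± 4.00 and 9.25% ± 3.08. The values did not overlap for 4 of these classes, the exceptions being enterocyte-like and unnamed cells (exact two-sided permutation p = 0.1, the smallest possible, and 0.15 adjusted over the 6 shares). For enterocyte-like cells the exact permutation p was 0.4 (0.48 adjusted) and for unnamed cells 0.6. Marker levels within classes differed too, which can move cells between classes: summed ISC markers stood at 3223 CPM in ISC-like cells with rIFNγ/rIL-10 and at 4718 CPM with Treg cells, and Paneth markers in goblet/Paneth-like cells at 105714 and 54545 CPM. Goblet markers in ISC-like cells stood at 3161 CPM with rIFNγ/rIL-10, close to the ISC markers there, and at 958 CPM with Treg cells. The part of these transcripts in the ISC-like results was not tested. In replicate 2 the share of TA-like cells was 53.4% with rIFNγ/rIL-10 and 54.1% with Treg cells.

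Within classes, where each was tested on its own, the interferon genes were called in all 4. MHC class II genes were higher in 7 of 9 in ISC-like, 9 of 9 in TA-like, 9 of 9 in enterocyte-like and 6 of 6 measured in goblet/Paneth-like cells, and immunity-related GTPases in 6 of 6, 9 of 9, 7 of 7 and 7 of 7. Here too a gene could be tested through the rIFNγ/rIL-10 cells of a class alone, so these shares are not independent of the filter on low counts. Of the genes tested, 2.44%, 18.2%, 16.4% and 1.14% were called in these classes, 1.20%, 9.62%, 9.06% and 0.856% higher and 1.24%, 8.53%, 7.35% and 0.289% lower. A class held between 14 and 534 cells per group and replicate, and the classes with the fewest cells had the fewest calls.

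In ISC-like cells Iigp1 stood at 583, 109 and 231 CPM with rIFNγ/rIL-10 and had 3 UMIs in all with Treg cells (683 against 3, ratio 517 per UMI sequenced, counting interval 176 to 2513). Gbp7 stood at 117, 15.1 and 30.8 CPM against 1.22, 0.557 and 0 CPM. Among the lowest, Ttr stood at 2.52, 6.70 and 10.3 CPM against 45.8, 26.7 and 67.6 CPM (-2.84 ± 0.47, adjusted p = 0.00052). Ttr was also among the 3 lowest genes in TA-like cells (-2.49 ± 0.33, adjusted p = 6.5e-05) and in goblet/Paneth-like cells (-2.97 ± 0.41, adjusted p = 9.7e-05). For Sycn, 3 UMIs with rIFNγ/rIL-10 stood against 93 with Treg cells in ISC-like cells.

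In TA-like cells Slc6a19, a neutral amino acid transporter of enterocytes, stood at 1.22, 2.45 and 0.369 CPM with rIFNγ/rIL-10 and at 14.5, 10.1 and 10.95 CPM with Treg cells (-2.74 ± 0.26, adjusted p = 8.6e-06). Summed enterocyte markers in TA-like cells stood at 1444 CPM with rIFNγ/rIL-10 and 1921 CPM with Treg cells, and enterocyte progenitor markers at 1826 and 2552 CPM. The part of cell maturity in the Slc6a19 difference was not tested. Clca4b, a chloride channel accessory protein, differed by -1.81 ± 0.25. In enterocyte-like cells Fos stood at 18.2, 107 and 81.8 CPM against 427, 200.3 and 442 CPM (-2.27 ± 0.41, adjusted p = 0.0012), and Ly6a had 737 UMIs against 1 (ratio 626, counting interval 112 to 24772). Ribosomal protein genes, none of which served to assign classes, were higher in 22 and lower in 0 of 83 in TA-like cells (median log2 fold change 0.05), and higher in 0 and lower in 48 in enterocyte-like cells (median -0.16), where 40 and 63 had an unadjusted p under 0.05. DESeq2 gave 24 higher and 39 lower. The test of the difference between these classes called 2 of the 83, 0 without replicate 1, without replicate 3 or without the block and 66 without replicate 2, so the difference between the classes rests on which replicates are used. Constitutive proteasome genes were higher in 15 and 20 of 31.

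Whether the response differed between classes was tested directly for enterocyte-like against TA-like cells, in a model with each group and replicate as a block. Of 12946 genes, 163 (1.26%) had a different log2 fold change. Taken with its sign, it was larger in enterocyte-like cells for 91 and in TA-like cells for 72. Nudt5, an ADP-ribose hydrolase, gave 2.20 in enterocyte-like and 0.45 in TA-like cells (difference 1.62 ± 0.24, adjusted p = 0.0017). Slc6a19 was lower in both, by -0.97 and -2.74 in the same order (difference 1.84 ± 0.27, adjusted p = 0.0017). Fkbp5, a glucocorticoid-responsive chaperone, gave -1.98 in enterocyte-like and -0.20 in TA-like cells (difference -1.79 ± 0.33, adjusted p = 0.010). Of 9 MHC class II genes and 8 immunity-related GTPases, edgeR called 0 in this test. Without replicate 2 it called 2 of 9 in each list, larger in enterocyte-like cells. Without the filter on low counts it called 2 of 12 MHC class II genes and 1 of 9 GTPases, in the same direction. Over all genes the count was 6 without replicate 1, 761 without replicate 2 and 1 without replicate 3, and 0 without the block (650 at an unadjusted p under 0.05).

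Markers of other cells were low. Of 14 T cell markers, 2 were high enough to be tested (Ctla4 and Lck) and 0 were called (0 had an unadjusted p under 0.05, and DESeq2 called 0). 12 further markers had at most 12 UMIs in a group, among them Cd3e with 2 UMIs in rIFNγ/rIL-10 cells and 0 in Treg and control cells. The summed level of the T cell markers was 1.51 to 2.71 CPM with rIFNγ/rIL-10, 2.19 to 3.01 CPM with Treg cells and 2.70 to 2.76 CPM in control. Of 15 myeloid and stromal markers, 5 could be tested and 0 were called (1 had an unadjusted p under 0.05), at a summed 8.12 to 13.7 CPM with rIFNγ/rIL-10 and 7.50 to 9.08 CPM with Treg cells. Of 9 tuft cell genes, 0 were called (1 had an unadjusted p under 0.05). Mitochondrial genes were lower in 6 of 13 with rIFNγ/rIL-10, and the largest of these changes was -0.21 on the log2 scale (mt-Atp8).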

How the data were processed

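Single-cell UMI counts of genes and hashtags were analysed as the authors deposited them. Per the study's methods, the authors aligned reads of 10x Genomics 3′ libraries with Cell Ranger 7.0.0 to mouse build GRCm38 (mm10) and analysed them with Seurat 4.0.5. The deposited counts are raw UMIs, with no normalisation. Here each library was demultiplexed with HTODemux (Seurat 5.3.0, CLR-normalised hashtags, positive quantile 0.99). The lower and upper limits per cell were 10000 and 90000 UMIs and 3000 and 10000 genes, and the mitochondrial share was limited to 8.5%. Doublets were removed by hashtag alone, so doublets within a group remain. Library B6 was left out, since 450 of its 3952 singlets passed these limits, and no value column of other samples was used (0 columns). Members, gene lists and alternatives were chosen with earlier results of these data known.

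Cells were added up per group and replicate (B1 and B2, B3 and B4, B5) and tested with edgeR 4.0.16 in R 4.3.3 (TMM, filterByExpr, quasi-likelihood test, Benjamini-Hochberg adjustment) over all genes, with 6 groups and the replicate as a block. The pairing comes from the design, as every library held every group. Samples of the same replicate deviated from their group means together (mean correlation 0.709). The rIFNγ/rIL-10 and Treg samples correlated by 0.579, 0.0948 and 0.779 in replicates 1, 2 and 3. The mean between replicates (-0.334) is negative because group means were removed, and it says nothing on the pairing. The sources do not say whether replicates came from separate mice, so edgeR's p-values measure the spread between these experiments. That spread was estimated over all 6 groups after the replicate block, and not over the 2 compared groups alone. Summed depth per group and replicate was 15150746 to 43932845 UMIs. Per-cell levels move with depth, and cells were therefore also thinned to 10000 UMIs.

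Classes were named from Leiden clusters of control cells (leidenalg 0.10.2) by marker lists, and all cells were assigned by Spearman correlation over marker genes outside the interferon lists. Of control cells, 89.1% to 92.4% returned to their own class. No enterocyte progenitor class formed. Single values were compared by exact two-sided permutation tests that did not keep the pairing by replicate (scipy 1.17.1). The text names the 12 highest and 12 lowest genes that passed the test, went the same way in 3 of 3 replicates and reached 10 CPM, up to 4 members per list, every receptor and signalling gene, the 3 highest and 3 lowest per class and the 4 highest and 4 lowest of the difference between classes. Further list members were named after their values were seen. The pipeline was tested on simulated counts. Alternatives were DESeq2 1.42.0, RLE size factors, no filter, no block, the 2 groups alone, equal cells per class, thinned cells, no doublet-like cells, each replicate left out and, chosen after seeing the data, library B3 left out. Some genes that this rule picks are not reported here.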

Additional observations from a re-analysis of the deposited data

Results flagged for a closer look

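In 7 genes the response to rIFNγ/rIL-10 relative to Treg co-culture differed between enterocyte-like and TA-like cells by a test of the difference itself (edgeR, adjusted p under 0.05). The test called 163 genes, but 6 without replicate 1, 1 without replicate 3 and 0 without the block. These calls thus depend on the replicates used and on the block. The log2 fold change, taken with its sign, was larger in enterocyte-like cells by 1.84 for Slc6a19, 1.65 for Tmem171 and 1.62 for Nudt5. It was smaller there for E2f1 (-2.05), Slc1a3 (-1.82), Fkbp5 (-1.79) and Ung (-1.68). E2f1, a cell cycle factor, and Ung, a DNA repair enzyme, had also served to assign cells to classes, so their values are not independent of the classes compared. Both were low in enterocyte-like cells, at most 3.56 CPM for E2f1 and 6.48 CPM for Ung. Slc1a3 went the other way in enterocyte-like cells of replicate 2, at 2.99 CPM with rIFNγ/rIL-10 and 2.75 CPM with Treg cells. Tmem171 gave 0.98 in enterocyte-like and -0.63 in TA-like cells. Slc6a19 was lower with rIFNγ/rIL-10 in both classes, by -0.97 and -2.74 in the same order, so it changed less in enterocyte-like cells. Summed enterocyte markers were also lower with rIFNγ/rIL-10 than with Treg cells within both classes. They stood at 20690 and 24921 CPM in enterocyte-like cells and at 1444 and 1921 CPM in TA-like cells. Whether cell maturity within the classes had a part in these differences was not tested.

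A signal was also present in library B6, which no comparison used. It is a second library of replicate 3, like B5, and so not an independent experiment. Singlets with its rIFNγ/rIL-10 hashtag (501 cells) spent 0.718% of their UMIs on the interferon-response genes (exact 95% interval 0.708% to 0.728%, counting error only). Its Treg singlets (872 cells) spent 0.205% and its control singlets (407 cells) 0.138%. Most of these singlets failed the cell limits. The 54 rIFNγ/rIL-10, 90 Treg and 78 control cells within them spent 0.847%, 0.194% and 0.132%.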

How the results depend on the processing

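The interferon share per cell and the class shares kept their direction under every alternative run for them. The number of genes called in all cells (3150) was 2 with the 2 groups alone (2517 at an unadjusted p under 0.05), 1532 with cells thinned to 10000 UMIs, and 5 to 3412 with 1 replicate left out. It was 3128 with DESeq2, 2340 with equal cells per class, 2765 without a filter and 3482 without library B3. With 1 replicate left out the interferon difference was 0.489 to 0.665 percentage points.

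Without the replicate block, and so without the pairing, the counts were 446 over all cells, 74 for the ISC-like and 329 for the TA-like class. They were 254 for the enterocyte-like class, 63 for goblet/Paneth-like cells and 0 for the difference between classes (650 at an unadjusted p under 0.05).

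In ISC-like cells (244) the count was 135 with the 2 groups alone, 83 with thinned cells, 143 with equal cells per class, 492 without a filter and 63 to 350 with 1 replicate left out. In TA-like cells (2493) it was 364 with the 2 groups alone, 817 with thinned cells and 428 to 3356 with 1 replicate left out. In enterocyte-like cells (1829) it was 215, 875 and 236 to 2676 in the same order. In goblet/Paneth-like cells (95) it was 48 with thinned cells, 62 with equal cells per class, 220 without a filter and 48 to 91 with 1 replicate left out. The difference between classes (163) was 101 with equal cells per class, 505 without a filter and 1 to 761 with 1 replicate left out. Neurod1, an enteroendocrine factor, turned from 1.40 to -0.057 on the log2 scale with equal cells per class. The cause of these shifts was not tested, beyond fewer samples or UMIs where these were removed.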
